A study of Mus musculus with 8 samples.

Results

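Messenger RNA for 10 vascular signalling genes was followed in 3T3-L1 cells: the growth factors Vegfa, Vegfb, Vegfc and Pgf, the angiopoietins Angpt1 and Angpt2, and the cell-surface proteins Flt1, Tek, Nrp1 and Mcam. They were the 10 of 49585 genes in the count table whose Ensembl identifiers map to those symbols, and each symbol matched 1 identifier. 3T3-L1 is a clonal mouse fibroblast line that can become fat cells in culture and contains no vessels. RNA was sequenced in 8 libraries, 2 per group, all from day 7. The 3D induced and 3D uninduced cultures were hanging-drop spheroids seeded with 20000 cells in 28 µL, and the 2D induced and 2D uninduced cultures were flat layers. Induced cultures received insulin at 1 µg/ml and troglitazone at 10 µM throughout, with dexamethasone at 250 nM and triiodothyronine at 10 nM in the first 2 days. All 4 groups shared a high-glucose medium with calf serum and methylcellulose.

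Fat grows together with its blood supply, and preadipocytes and adipocytes release factors that act on nearby vessels. VEGF-A drives vessel sprouting through the tyrosine kinase receptors KDR and FLT1. VEGF-B and placental growth factor bind FLT1, and VEGF-C acts on the lymphatic receptor FLT4. ANGPT1 activates the receptor TEK and stabilises vessels, while ANGPT2 can oppose it. NRP1 is a co-receptor for VEGF-A and semaphorins, and MCAM (CD146) is an adhesion molecule of endothelial and mural cells.

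Each library held 11839374 to 21169390 counts, and levels are given as CPM, counts scaled to the library size, of which 1 stood for 11.8 to 21.2 counts before scaling. A change was called when it reached 2-fold with an adjusted p under 0.05, from the quasi-likelihood test of edgeR adjusted over 15255 genes. Log2 fold changes carry an approximate standard error, their size divided by the square root of the F statistic of that test. Each group had n = 2 libraries. The series calls its samples independently prepared without saying that they were separate cultures, and p-values refer only to the spread between samples of this kind. The 3D induced libraries stood apart from each other: between them 2159 of 15255 genes were at least 2-fold different, compared with 380 to 561 within the other groups. Of 12 endothelial marker genes, Tie1, Erg and Cldn5 had 0 counts in every library, and the summed level of all 12 was 5.01 to 7.95 CPM. Only 4 of the 12 were tested: in uninduced spheroids 1 rose, beside 5.42% of all genes, and 1 fell, beside 4.02%. Vwf rose there by 1.59 ± 0.44 log2 (adjusted p = 0.0388, edgeR). Egfl7 changed in spheroids by -1.45 ± 0.41 log2 when induced and -1.81 ± 0.46 log2 when uninduced (adjusted p = 0.0334 and 0.0298, edgeR). Of 7 macrophage markers, Ptprc and Adgre1 had 0 counts in every library, and all 7 summed to 11.9 to 25.7 CPM, with Csf1r at 6.41 to 16.9 CPM. In induced spheroids Cd68 of that list rose by 3.66 ± 0.61 log2, while Lyz2 fell by 2.64 ± 0.67 log2 (adjusted p = 0.00498 and 0.0241, edgeR). Cd68 averaged 7.02 ± 5.05 CPM in 3D induced cultures (SD, n = 2). All 8 adipocyte markers rose on induction in 2D, beside 3.17% of all genes, and 6 of 8 rose on induction in 3D, where 0.911% of all genes were called in either direction. These are bulk samples, in which fewer cells of a type and less RNA per cell cannot be told apart.

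The 250 bases before the RefSeq transcription start (GRCm38.p6) are shown for Vegfa and Flt1, whose levels were higher in every spheroid than in every flat library, and for Vegfb, whose levels were lower. The regions are chr17:46032378-46032627 for Vegfa, chr5:147726012-147726261 for Flt1 and chr19:6987652-6987901 for Vegfb, all on the minus strand and written in the direction of transcription. Capitals mark ACGTG or GCGTG on either strand, the cores that hypoxia-inducible factors bind.

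Vegfa: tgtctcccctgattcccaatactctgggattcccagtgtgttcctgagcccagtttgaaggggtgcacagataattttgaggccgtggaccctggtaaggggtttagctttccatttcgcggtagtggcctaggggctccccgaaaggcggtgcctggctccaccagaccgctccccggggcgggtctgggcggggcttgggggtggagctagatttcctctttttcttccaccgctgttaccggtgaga

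Flt1: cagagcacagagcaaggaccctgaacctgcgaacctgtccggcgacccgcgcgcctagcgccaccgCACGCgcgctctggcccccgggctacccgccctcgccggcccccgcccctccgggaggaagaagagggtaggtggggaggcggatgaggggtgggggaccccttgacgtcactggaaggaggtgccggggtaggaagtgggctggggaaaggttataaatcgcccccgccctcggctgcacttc

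Vegfb: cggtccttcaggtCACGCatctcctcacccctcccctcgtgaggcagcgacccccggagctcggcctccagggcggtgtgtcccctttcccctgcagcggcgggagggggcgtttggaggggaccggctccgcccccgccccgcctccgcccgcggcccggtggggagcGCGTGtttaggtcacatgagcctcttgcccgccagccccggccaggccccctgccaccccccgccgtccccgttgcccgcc

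GCGTG occurred once in the Flt1 window, at position -184 on the opposite strand. It occurred at -237 and -81 in the Vegfb window, while neither core was in the Vegfa window. Among 32851 mouse promoter windows of the same length, 28.2% held GCGTG and 16.6% held ACGTG. The SP1 motif GGGCGG, which does not overlap the capitals, occurred at -72 and -62 in the Vegfa window, 3 times in the Flt1 window and 4 times in the Vegfb window, and was present in 32.7% of all windows. The TEAD factor motif GGAATG was in none of the 10 windows RefSeq gives for 8 of the genes, against 12.6% of all windows. RefSeq lists another Vegfa start inside the gene, whose window holds GCGTG at -218 and ACGTG at -211. These matches describe letters and were not tested for binding; the known hypoxia element of the human VEGFA gene lies further upstream than such a window.

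Scaled to exon length (RPKM), Vegfb and Vegfa were the most abundant of the 10, with means over the 8 libraries of 52.3 and 35.2 RPKM. Angpt1 followed at 26.1 RPKM, Vegfc at 11.0 RPKM and Nrp1 at 10.1 RPKM. The receptors other than Nrp1 were scarce, with Flt1 at 0.901 RPKM, Mcam at 0.608 RPKM and Tek at 0.0498 RPKM. Angpt2 stood between at 2.99 RPKM and Pgf near the bottom at 0.132 RPKM. Of the 10 genes, 9 passed the filter on low counts, and Pgf did not. Tek passed it through 2D uninduced libraries alone, where it was high, so its test is not used. All 4 spheroid libraries were higher than all 4 flat libraries for 2 of the 10 genes and lower for 2, while the ranges overlapped for 6. Of the 15255 genes tested, 35.2% had no overlap between the formats.

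**Figure D1:**
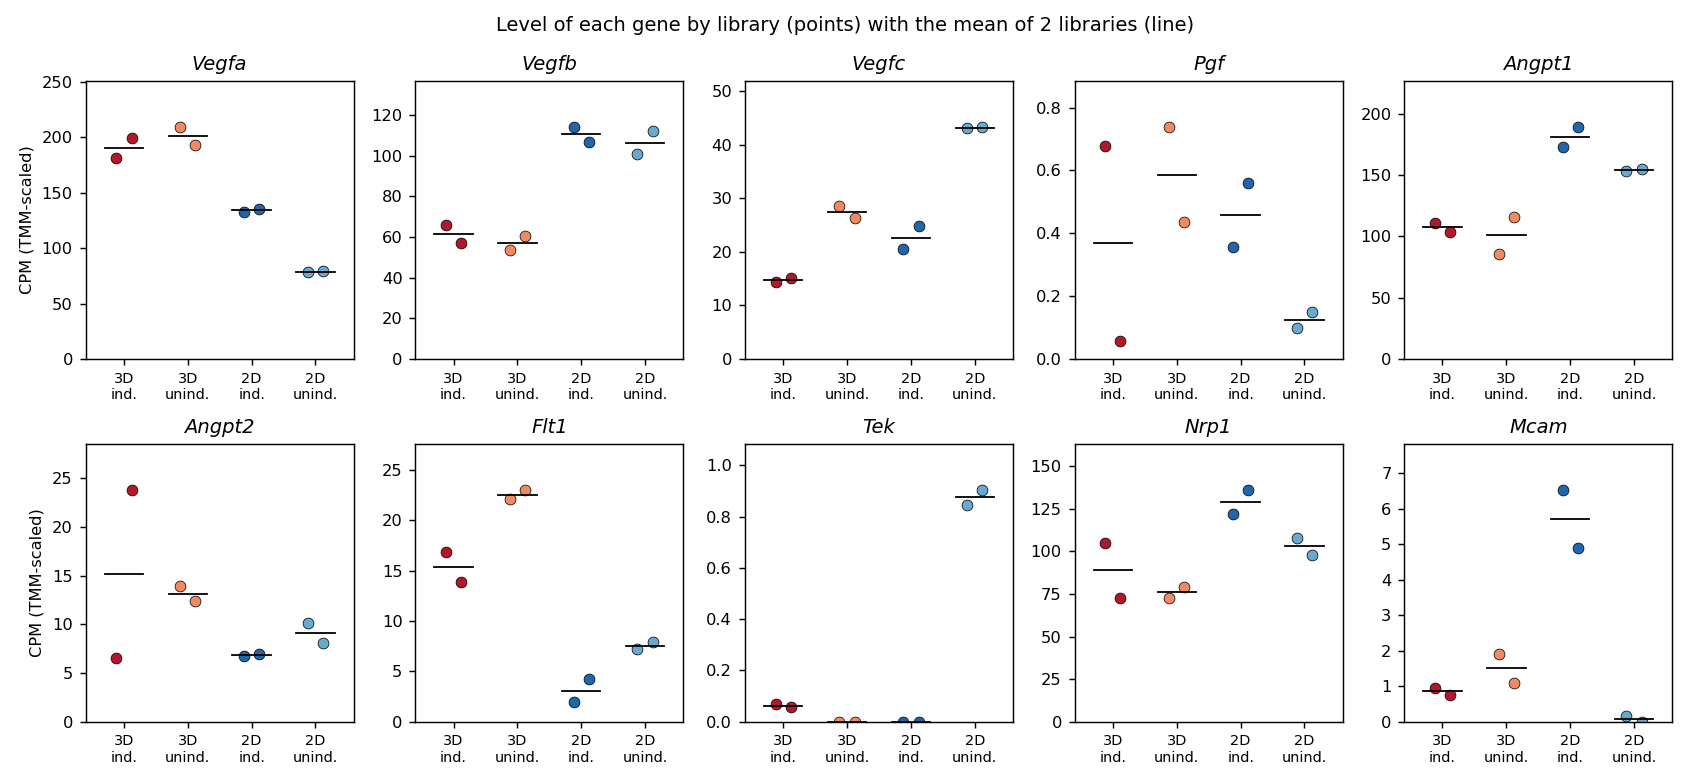
Level of each of the 10 genes in CPM (y axis, linear from 0, scale differs by panel) in 3D induced, 3D uninduced, 2D induced and 2D uninduced cultures; each point is 1 library and each line the mean of 2. Vegfa and Flt1 lie higher in all spheroid libraries and Vegfb and Angpt1 lower, Tek is at 0 outside 2D uninduced cultures except for 1 count per 3D induced library, and Mcam is highest in 2D induced cultures.

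Vegfa (ENSMUSG00000023951, GRCm38 chromosome 17 from 46016993 to 46032369, minus strand, 8 merged exons) encodes the main inducer of vessel sprouting. It had 181 and 199 CPM in 3D induced, 209 and 193 CPM in 3D uninduced, 133 and 135 CPM in 2D induced and 78.7 and 79.0 CPM in 2D uninduced libraries. The 2D uninduced cultures were lowest and the 2D induced cultures next, and the spheroid groups overlapped each other above both. Vegfa rose in uninduced spheroids against uninduced flat cultures by 1.35 ± 0.10 log2, or 2.55-fold (adjusted p = 0.000402, edgeR). The call held in all 14 alternatives. In induced cultures the spheroid excess was 0.51 ± 0.10 log2, under 2-fold (adjusted p = 0.00960, edgeR), with 0.58 in the absence of 3D induced replicate 1 and 0.44 in that of replicate 2. Averaged over both induction states it was 0.93 ± 0.07 log2 (adjusted p = 0.000127, edgeR).

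Induction moved Vegfa in flat cultures by 0.76 ± 0.10 log2, a 1.70-fold excess under the 2-fold threshold (adjusted p = 0.00421, edgeR). In spheroids the induced level was 0.08 log2 below the uninduced one, written -0.08 ± 0.10 (adjusted p = 0.841, edgeR), and the replicates overlapped. The difference between these responses was -0.84 ± 0.14 log2 (adjusted p = 0.0758, edgeR), and its adjusted p ran over 13 alternatives between 6.69e-05 and 0.573. Gene counts do not separate the splice forms of Vegfa.

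Vegfb (ENSMUSG00000024962, chromosome 19 from 6982473 to 6987651, minus strand) encodes a ligand of FLT1 tied to fatty acid handling in several tissues. It had 66.0 and 57.3 CPM in 3D induced, 53.5 and 60.6 CPM in 3D uninduced, 114 and 107 CPM in 2D induced and 101 and 112 CPM in 2D uninduced libraries. All spheroid libraries lay below all flat ones, and induction left the replicates overlapping in both formats. The spheroid difference was -0.84 ± 0.12 log2 in induced cultures (adjusted p = 0.00308, edgeR) and -0.90 ± 0.12 log2 in uninduced cultures (adjusted p = 0.00315, edgeR), in both cases under 2-fold. The induced difference became -0.94 when 3D induced replicate 1 was left out and -0.74 when replicate 2 was.

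Vegfc (ENSMUSG00000031520, chromosome 8 from 54077606 to 54187096, plus strand) encodes the main growth factor of lymphatic vessels. It had 14.3 and 15.1 CPM in 3D induced, 28.5 and 26.3 CPM in 3D uninduced, 20.5 and 24.8 CPM in 2D induced and 43.0 and 43.2 CPM in 2D uninduced libraries. The 4 groups did not overlap, and induced cultures were lower than uninduced ones in each format. The induction differences were -0.90 ± 0.14 log2 in spheroids (adjusted p = 0.0300, edgeR) and -0.92 ± 0.14 log2 in flat cultures (adjusted p = 0.00679, edgeR), both just under 2-fold. Their difference was 0.02 ± 0.20 log2 (adjusted p = 0.994, edgeR). Spheroids lay below flat cultures, with differences of -0.63 ± 0.14 log2 when induced (adjusted p = 0.0150) and -0.65 ± 0.14 log2 when uninduced (adjusted p = 0.0151). The summed level of 8 preadipocyte and fibroblast markers was 2017 to 6092 CPM in 3D induced, 4791 to 5593 CPM in 3D uninduced, 7829 to 8068 CPM in 2D induced and 14221 to 14339 CPM in 2D uninduced libraries. Most of that sum was Col1a1 and Dlk1, with means of 8546 and 4406 CPM in 2D uninduced cultures. Of 7 tested in that list, 1 rose and 2 fell in induced spheroids, beside 6.94% and 5.46% of all genes. In uninduced spheroids 1 rose and 1 fell, beside 5.42% and 4.02%. Pi16 rose in spheroids, by 1.03 ± 0.25 log2 when induced and 2.04 ± 0.23 log2 when uninduced (adjusted p = 0.0195 and 0.00167, edgeR). Dlk1 changed by -1.83 ± 0.36 log2 when induced and -2.57 ± 0.37 log2 when uninduced (adjusted p = 0.00919 and 0.00370, edgeR). Thy1 changed by -1.53 ± 0.18 log2 when induced (adjusted p = 0.00136, edgeR). The sum was highest in 2D uninduced cultures, as Vegfc was, but did not separate the spheroid groups. Its part in the Vegfc values was not tested.

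Pgf (ENSMUSG00000004791, chromosome 12 from 85166635 to 85177790, minus strand) encodes placental growth factor. It had 10 and 1 counts in 3D induced, 10 and 6 counts in 3D uninduced, 4 and 8 counts in 2D induced and 2 and 2 counts in 2D uninduced libraries. Summed per group and scaled, 3D uninduced cultures stood at 4.88 times the 2D uninduced level (95% counting interval 1.58 to 20.1), and 2D induced at 3.93 times it (1.19 to 16.7). The 3D induced level was 0.589 times that of 3D uninduced cultures (0.247 to 1.35). These intervals cover counting error only, and the gene was not tested.

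The make-up of VEGF-family ligand mRNA shifted with these levels. Together with Vegfd, a further lymphatic ligand of the family, the 5 genes summed to 121 and 116 RPKM in 3D induced, 116 and 126 RPKM in 3D uninduced, 149 and 151 RPKM in 2D induced and 184 and 192 RPKM in 2D uninduced libraries. Vegfa made up 34.9 and 40.1% of that sum in 3D induced libraries, 41.9 and 35.7% in 3D uninduced libraries, 20.7 and 20.9% in 2D induced libraries and 9.97 and 9.58% in 2D uninduced libraries. The Vegfa share was thus higher in each spheroid library than in any flat one. Vegfd held 26.1 and 23.7% in 3D induced libraries, 19.3 and 25.7% in 3D uninduced libraries, 26.2 and 28.0% in 2D induced libraries and 46.2 and 45.0% in 2D uninduced libraries. The ratio of Vegfa to Vegfb in RPKM was 1.03 and 1.30 in 3D induced libraries, 1.46 and 1.19 in 3D uninduced libraries, 0.437 and 0.472 in 2D induced libraries and 0.291 and 0.265 in 2D uninduced libraries. In RPKM Vegfa exceeded Vegfb in every spheroid library and was below it in every flat one. That order depends on the merged exon lengths used, 4.285 kb for Vegfa and 1.605 kb for Vegfb.

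**Figure D2:**
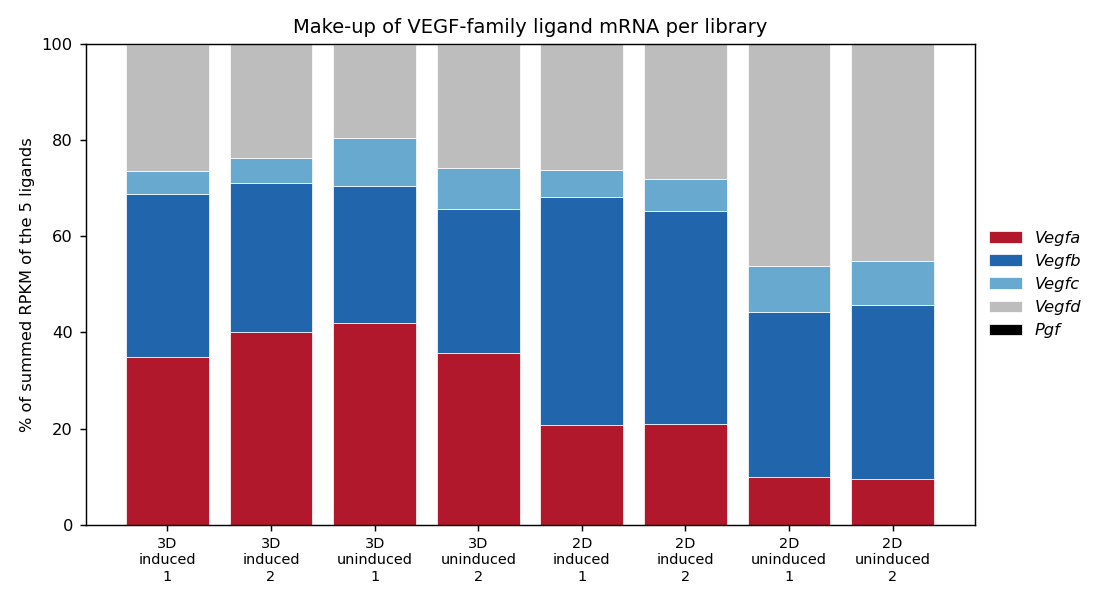
Share of each VEGF-family ligand (y axis, % of the summed RPKM of 5 ligands) in each of the 8 libraries, from 3D induced to 2D uninduced. Vegfa holds 34.9 to 41.9% in spheroid libraries and 9.58 to 20.9% in flat ones; Pgf, at 0.218% or less, is too small to be seen.

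Vegfa belongs to the hypoxia response in many cell types, and 17 other genes of hypoxia sensing and response were listed. Besides response genes, the list holds HIF subunits and regulators of HIF. In uninduced spheroids against uninduced flat cultures 0 rose, beside 5.42% of all genes, and 3 fell, beside 4.02%, with a list median of -0.36 log2 beside 0.03 for all genes tested. The kinase Pdk1, which limits pyruvate oxidation, fell by 1.08 ± 0.14 log2 (adjusted p = 0.00271, edgeR), and Ero1l, an oxidase of disulphide bond formation, fell by 1.09 ± 0.13 log2 (adjusted p = 0.00222). Ndrg1 fell by 2.28 ± 0.32 log2 (adjusted p = 0.00331). On the Vegfa side of 0, uncalled, the carbonic anhydrase Car9 stood highest at 2.73 ± 0.85 log2 (adjusted p = 0.0578, edgeR). It had 33 counts in 3D uninduced and 6 counts in 2D uninduced cultures. Also uncalled on that side, Epas1 and Pfkfb3 both stood at 0.96 log2 and Slc2a1 at 0.46 log2. In induced cultures 1 of the 17 rose in spheroids, beside 6.94% of all genes, and 8 fell, beside 5.46%, with a median of -1.0 log2 beside 0.03 for all genes. Egln3, a prolyl hydroxylase that marks HIF proteins for degradation, averaged 25.8 ± 6.28 CPM in 3D induced and 156 ± 5.75 CPM in 2D induced cultures (SD, n = 2 each), a difference of -2.60 ± 0.17 log2 (adjusted p = 0.000200, edgeR). The 1 gene that rose was Car9, with 24 counts in 3D induced and 1 count in 2D induced cultures. Over both induction states Car9 was called at 3.38 ± 0.74 log2 (adjusted p = 0.00847, edgeR). The part of oxygen supply in the values of Vegfa and the listed genes was not tested.

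On induction in flat cultures, where Vegfa gained 0.76 log2, 6 of the 17 hypoxia genes rose, beside 3.17% of all genes, and 0 fell, beside 1.34%, with a median of 0.85 log2 beside 0 for all genes. Egln3 rose by 2.55 ± 0.17 log2, Bnip3, a mitophagy receptor, by 1.68 ± 0.18 log2, and Pdk1 by 1.09 ± 0.14 log2 (adjusted p = 0.000192, 0.00147 and 0.00328, edgeR). On induction in spheroids, 0 of 17 were called in either direction, beside 0.911% of all genes, with a median of 0.11 log2 beside 0.04.

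**Figure D3:**
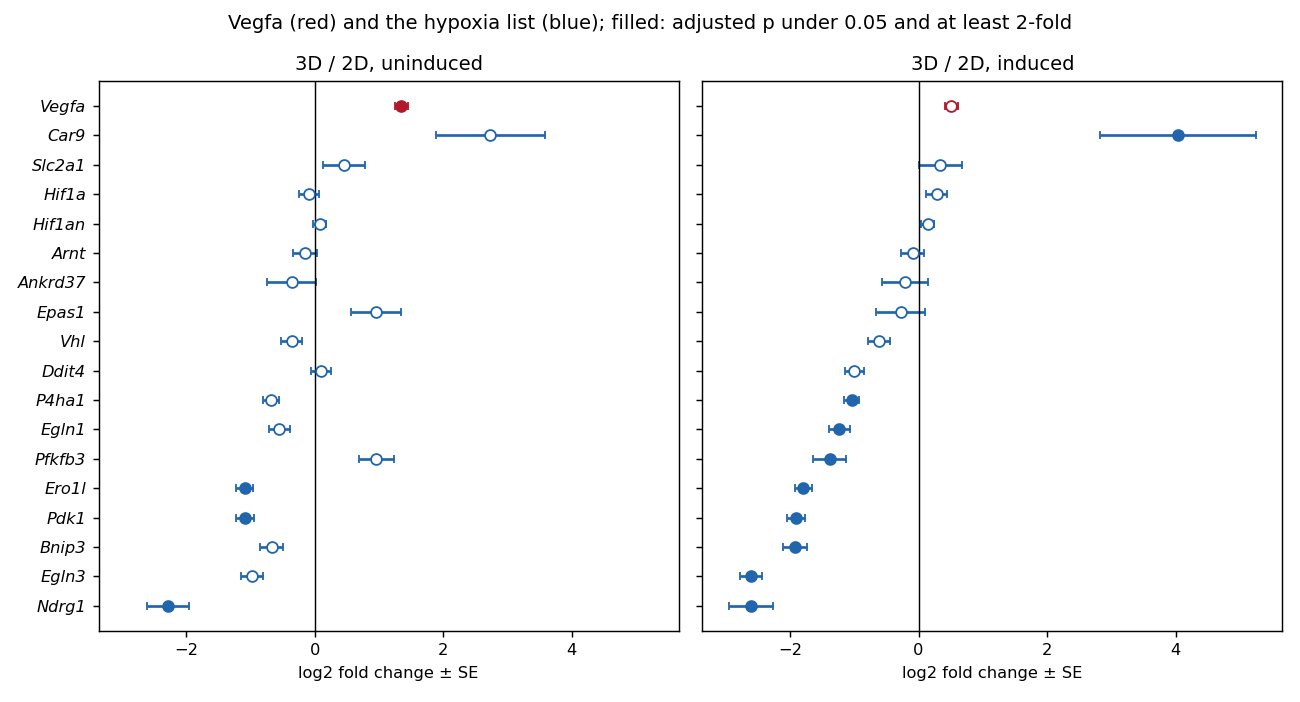
Log2 fold change ± SE (x axis) of Vegfa and the 17 genes of the hypoxia list for spheroid against flat cultures, uninduced on the left and induced on the right; filled points passed an adjusted p of 0.05 and 2-fold. Vegfa lies right of 0 at 1.35 and 0.51, while 3 listed genes in the left panel and 8 in the right panel are called below 0. Car9 lies furthest right in both panels and rests on 6 counts in 2D uninduced and 1 count in 2D induced cultures.

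Angpt1 (ENSMUSG00000022309, chromosome 15 from 42424723 to 42676977, minus strand) encodes the activating ligand of TEK. It had 111 and 104 CPM in 3D induced, 85.9 and 116 CPM in 3D uninduced, 173 and 189 CPM in 2D induced and 153 and 155 CPM in 2D uninduced libraries. Every spheroid library was lower than every flat one. The difference was -0.75 ± 0.15 log2 in induced cultures (adjusted p = 0.00902, edgeR) and -0.61 ± 0.15 log2 in uninduced cultures (adjusted p = 0.0247, edgeR), both under 2-fold. Induction changed it by 0.09 ± 0.15 log2 in spheroids and 0.23 ± 0.15 log2 in flat cultures (adjusted p = 0.881 and 0.391), past no threshold. The antisense gene Gm17473 covers 14.16% of the exon bases of Angpt1, and it too was lower in spheroids, at 8.11 to 12.9 CPM, than in flat libraries, at 18.3 to 19.6 CPM. Whether counting used strand is not given in the sources used here, so reads from the shared bases cannot be told apart.

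Angpt2 (ENSMUSG00000031465, chromosome 8 from 18690263 to 18741562, minus strand) encodes the context-dependent antagonist of TEK. It had 6.50 and 23.8 CPM in 3D induced, 13.9 and 12.4 CPM in 3D uninduced, 6.79 and 6.93 CPM in 2D induced and 10.1 and 8.06 CPM in 2D uninduced libraries. One 3D induced library was the lowest of all 8 and the other the highest. No comparison called Angpt2 with all 8 libraries; induction in spheroids gave 0.21 ± 0.49 log2 (adjusted p = 0.925, edgeR). Without 3D induced replicate 2 the same comparison gave -1.02 (adjusted p = 0.00660), and without replicate 1 it gave 0.86 (adjusted p = 0.00179), so its direction rests on which library is used. For induced spheroids against induced flat cultures the difference was 1.15 ± 0.51 log2 with all libraries (adjusted p = 0.127, edgeR), 1.80 without replicate 1 (adjusted p = 1.53e-06) and -0.08 without replicate 2 (adjusted p = 0.802). The ratio of Angpt1 to Angpt2 in RPKM was 12.1 and 3.10 in 3D induced libraries, 4.37 and 6.63 in 3D uninduced libraries, 18.1 and 19.3 in 2D induced libraries and 10.8 and 13.6 in 2D uninduced libraries. The ratio was highest in 2D induced cultures and differed between the 3D induced replicates as much as between formats.

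Flt1 (ENSMUSG00000029648, chromosome 5 from 147561604 to 147726011, minus strand, 33 merged exons) encodes VEGF receptor 1, which also exists as a soluble decoy that gene counts do not separate. It had 16.9 and 13.9 CPM in 3D induced, 22.1 and 23.0 CPM in 3D uninduced, 1.97 and 4.20 CPM in 2D induced and 7.22 and 7.91 CPM in 2D uninduced libraries. Spheroids were above flat cultures throughout, and the 4 groups did not overlap. Flt1 rose in induced spheroids against induced flat cultures by 2.29 ± 0.31 log2, or 4.90-fold (adjusted p = 0.00239, edgeR). It was 2.14 with 3D induced replicate 1 left out and 2.41 with replicate 2 left out. The 2D induced libraries moved it further, to 1.87 without replicate 1 and 2.97 without replicate 2, and the call held in all 14 alternatives. Averaged over both induction states the rise was 1.94 ± 0.21 log2 (adjusted p = 0.000443, edgeR), called in all 13 alternatives.

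In uninduced cultures Flt1 rose in spheroids by 1.58 ± 0.28 log2, or 2.99-fold (adjusted p = 0.00856, edgeR). That call was lost when 2D uninduced replicate 1 or 2 or 3D uninduced replicate 1 or 2 was left out (adjusted p = 0.0967, 0.0756, 0.0616 and 0.0602), at 1.49 to 1.63 log2. On induction in flat cultures Flt1 fell by 1.26 ± 0.31 log2, or 2.40-fold (adjusted p = 0.0463, edgeR). This call was lost without either 2D uninduced library, 2D induced replicate 1 or either 3D uninduced library (adjusted p between 0.101 and 0.228) and with the replicate number as a block (0.0585). The value was -0.88 log2 without 2D induced replicate 1 and -1.98 log2 without 2D induced replicate 2. In spheroids the induction difference of -0.55 ± 0.27 log2 was not called (adjusted p = 0.488), and the inductions differed by 0.71 ± 0.41 log2 (adjusted p = 0.764).

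Tek (ENSMUSG00000006386, chromosome 4 from 94739289 to 94874976, plus strand) encodes TIE2, the angiopoietin receptor. It had 1 and 1 counts in 3D induced, 0 and 0 counts in 3D uninduced, 0 and 0 counts in 2D induced and 17 and 12 counts in 2D uninduced libraries. Tek was therefore detected above a floor of 3 counts per group in 2D uninduced cultures alone, at 0.846 and 0.904 CPM. Against that floor it was at least 7.38-fold lower in 2D induced than in 2D uninduced cultures, and at least 7.92-fold lower in 3D uninduced than in 2D uninduced cultures. These bounds describe the counts and carry no test. Among spheroids and among induced cultures both groups were under the floor, and no fold is given.

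Nrp1 (ENSMUSG00000025810, chromosome 8 from 128358604 to 128503363, plus strand) encodes the neuropilin co-receptor. It had 105 and 72.7 CPM in 3D induced, 72.6 and 79.3 CPM in 3D uninduced, 122 and 136 CPM in 2D induced and 108 and 97.8 CPM in 2D uninduced libraries. The highest spheroid library lay within the flat range. The spheroid difference was -0.54 ± 0.17 log2 in induced cultures (adjusted p = 0.0532, edgeR) and -0.44 ± 0.17 log2 in uninduced cultures (adjusted p = 0.114), and -0.49 ± 0.12 log2 over both (adjusted p = 0.0157), always under 2-fold.

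Mcam (ENSMUSG00000032135, chromosome 9 from 44134469 to 44142727, plus strand) encodes CD146. It had 14 and 13 counts in 3D induced, 26 and 15 counts in 3D uninduced, 73 and 70 counts in 2D induced and 3 and 0 counts in 2D uninduced libraries. In CPM the 3D induced libraries stood at 0.948 and 0.761, the 3D uninduced at 1.92 and 1.09, the 2D induced at 6.52 and 4.90 and the 2D uninduced at 0.149 and 0. The 4 groups did not overlap. Mcam rose on induction in flat cultures: the 2D induced level was 62.4 times the 2D uninduced level (95% counting interval 20.9 to 306; adjusted p = 0.00228, edgeR), called in all 14 alternatives. All 3 counts of 2D uninduced cultures lay in replicate 1: without replicate 2 the ratio was 37.6 (12.6 to 184), and without replicate 1 the level was at least 24.8-fold higher against the floor. In uninduced cultures it rose in spheroids to 16.7 times the flat level (5.32 to 84.2; adjusted p = 0.00983, edgeR), a call lost without 2D uninduced replicate 2 (0.0530) or 3D uninduced replicate 1 (0.0724). That ratio was 10.1 (3.21 to 50.7) without 2D uninduced replicate 2, and without replicate 1 the level was at least 6.64-fold higher against the floor. In induced cultures spheroid Mcam fell by 2.73 ± 0.50 log2, or 6.64-fold (adjusted p = 0.00704, edgeR). The value was -2.88 with 3D induced replicate 1 left out and -2.57 with replicate 2 left out, and the call was lost without 2D induced replicate 1 (0.0639) and with limma-voom group weights (0.113).

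Induction in spheroids left Mcam at -0.81 ± 0.53 log2 (adjusted p = 0.626, edgeR), not called. The inductions in spheroids and in flat cultures differed (adjusted p = 0.0299, edgeR), the only such call among the 8 genes counted as tested. It was lost when any one of the 2D induced, 2D uninduced or 3D uninduced libraries was left out (adjusted p between 0.122 and 0.225) and held without either 3D induced library. Markers of mural cells, which express MCAM in tissue, did not rise on induction in flat cultures: 0 of 11 rose, beside 3.17% of all genes, and 2 fell, beside 1.34%, with 7 tested. Their summed level was 326 to 504 CPM in 3D induced, 473 to 532 CPM in 3D uninduced, 360.1 to 377 CPM in 2D induced and 670.1 to 687 CPM in 2D uninduced libraries. Most of that sum was Pdgfrb and Acta2, with means of 366 and 251 CPM in 2D uninduced cultures, and Kcnj8 had 0 counts in all groups. The part of such cells in the Mcam values was not tested.

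**Figure D4:**
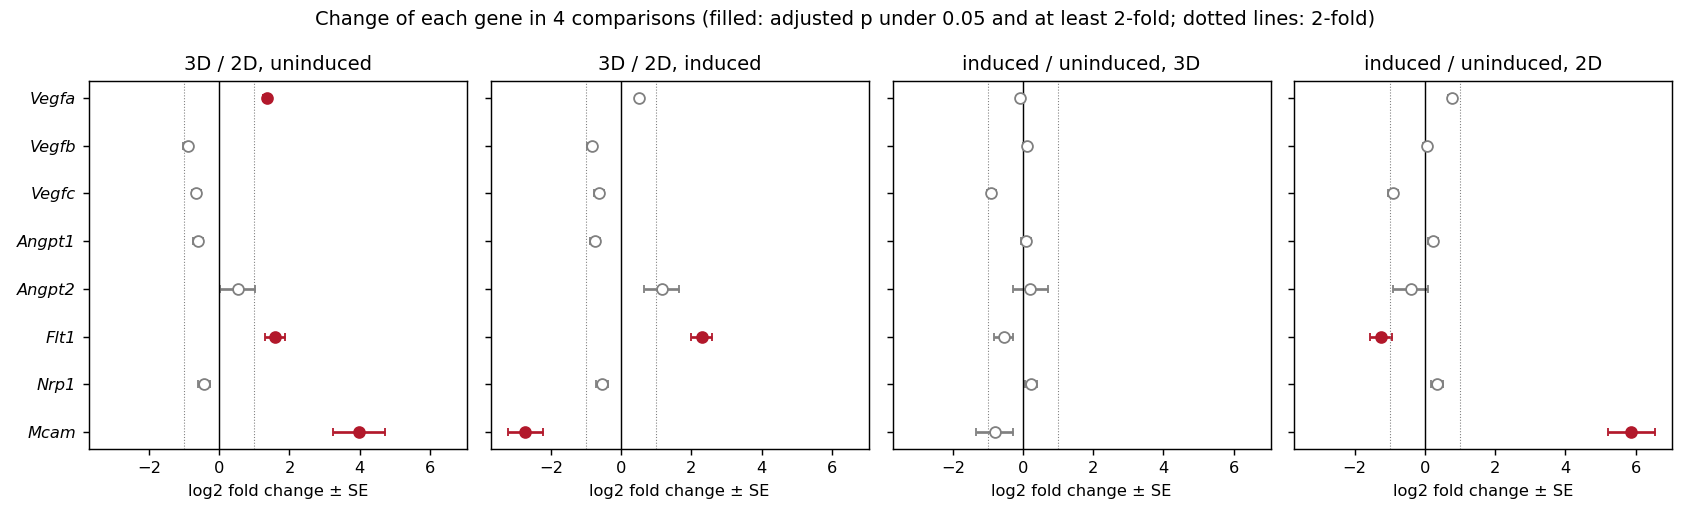
Log2 fold change ± SE (x axis) of 8 of the genes in 4 comparisons; filled points passed an adjusted p of 0.05 and 2-fold, and dotted lines mark 2-fold. Flt1 is filled right of 0 in both spheroid comparisons; Mcam lies at the far right for induction in 2D and left of 0 for induced spheroids, and its fitted values against 2D uninduced cultures rest on 3 counts there. Pgf was not tested, and Tek is left out because 2 groups had 0 counts.

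Read over the 8 genes tested, without Pgf and Tek, the calls lay in Flt1, Mcam and Vegfa. For spheroid against flat cultures without induction 3 were called, beside 9.44% of all genes, and all 3 were higher, beside 5.42%. With induction 2 were called, beside 12.4%, of which Flt1 was higher, beside 6.94%, and Mcam lower, beside 5.46%. Over both induction states Flt1 alone was called, beside 13.9% in either direction and 8.49% higher. For induction in 3D, 0 were called by edgeR, beside 0.911%, and 0 by DESeq2. Vegfc had an adjusted p of 0.0300 there (edgeR), but its 1.87-fold change was under the 2-fold threshold. In 2D 2 were called, beside 4.52%: Mcam was higher, beside 3.17%, and Flt1 lower, beside 1.34%. The difference of inductions called Mcam, beside 0.380% of all genes and 0.341% in its direction. By adjusted p alone, without a fold threshold, 6 of 8 passed for induced spheroids, beside 28.7% of all genes, and 6 of 8 for uninduced spheroids, beside 21.1%. The median of the 8 genes was -0.58 log2 for induced spheroids and 0.05 log2 for uninduced spheroids, beside 0.03 for all genes in both. For induction it was 0 log2 in 3D and 0.14 log2 in 2D, beside 0.04 and 0 for all genes. The comparisons share control libraries, so these counts are not independent.

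Partners of these proteins were examined from a list of 11. The receptors Flt4 and Tie1 had 0 counts in all groups, and Kdr, the main signalling receptor of VEGF-A, had 4 counts in 3D induced, 3 in 3D uninduced, 0 in 2D induced and 2 in 2D uninduced cultures. Of 7 tested, 0 rose and 1 fell in uninduced spheroids, beside 5.42% and 4.02% of all genes. The same counts held in induced spheroids, beside 6.94% and 5.46%, and on induction in flat cultures, beside 3.17% and 1.34%. On induction in flat cultures Vegfd fell by 1.08 ± 0.17 log2 (adjusted p = 0.00936, edgeR). In uninduced spheroids it fell by 1.65 ± 0.18 log2 (adjusted p = 0.00151, edgeR), with 66.0 ± 17.1 CPM in 3D uninduced and 207 ± 2.54 CPM in 2D uninduced cultures (SD, n = 2 each). Angpt4, the third angiopoietin, averaged 26.1 ± 5.48 CPM in 3D induced and 91.9 ± 4.61 CPM in 2D induced cultures, a change of -1.82 ± 0.17 log2 (adjusted p = 0.000700, edgeR). Among 7 class 3 semaphorins, which bind neuropilins, 5 were tested. Without induction 1 rose in spheroids, beside 5.42% of all genes, and 3 fell, beside 4.02%, with Sema3g at 2.44 ± 0.46, Sema3f at -1.49 ± 0.23 and Sema3c at -1.51 ± 0.29 log2 (adjusted p = 0.0103, 0.00502 and 0.0116). In induced spheroids 0 of 5 were called, beside 12.4% of all genes. There Sema3g stood at 0.22 ± 0.41, Sema3f at -0.79 ± 0.23 and Sema3c at -0.06 ± 0.29 log2. On induction in flat cultures Sema3g rose by 2.76 ± 0.46 log2 and Sema3c fell by 1.42 ± 0.29 log2 (adjusted p = 0.0109 and 0.0253).

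Among 19 other secreted angiogenic factors, 17 were tested. In induced spheroids 3 rose, beside 6.94% of all genes, and 4 fell, beside 5.46%, and in uninduced spheroids 4 rose, beside 5.42%, and 5 fell, beside 4.02%. Hgf, the ligand of the receptor MET, averaged 50.7 ± 1.72 CPM in 3D induced, 133 ± 1.94 CPM in 3D uninduced, 20.6 ± 1.51 CPM in 2D induced and 35.3 ± 2.38 CPM in 2D uninduced cultures (SD, n = 2 each). It rose in spheroids by 1.30 ± 0.12 log2 when induced and 1.92 ± 0.11 log2 when uninduced (adjusted p = 0.000646 and 0.000160, edgeR). Adm, the vasodilator adrenomedullin, fell in spheroids, changing by -3.23 ± 0.45 log2 when induced and -4.33 ± 0.48 log2 when uninduced (adjusted p = 0.00257 and 0.00167). Angptl4, an inhibitor of lipoprotein lipase, rose on induction in flat cultures by 1.87 ± 0.13 log2 (adjusted p = 0.000206) and in uninduced spheroids by 1.74 ± 0.13 log2 (adjusted p = 0.000344).

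Of 13 inhibitors of angiogenesis, 11 were tested, and in uninduced spheroids 0 rose, beside 5.42% of all genes, while 4 fell, beside 4.02%. Timp3, which inhibits metalloproteinases and VEGF-A signalling through KDR, averaged 25.1 ± 12.5 CPM in 3D uninduced and 169 ± 8.44 CPM in 2D uninduced cultures, a change of -2.75 ± 0.66 log2 (adjusted p = 0.0244, edgeR). On induction in flat cultures 2 fell, beside 1.34% of all genes, with changes of -3.34 ± 0.68 log2 for Timp3 and, for the matrix glycoprotein Thbs1, -1.77 ± 0.19 log2 (adjusted p = 0.0245 and 0.00172). In induced spheroids Sparc fell by 1.24 ± 0.20 log2 (adjusted p = 0.00438), and the chemokine Cxcl10 rose by 3.87 ± 1.06 log2 (adjusted p = 0.0307). Cxcl10 had 24.6 and 2.46 CPM in 3D induced libraries, 10-fold apart between replicates, against 1.16 and 0.700 CPM in 2D induced libraries.

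Across the 8 libraries, which share format and induction as sources of variation, log2 CPM of Vegfa was closest to that of Id1 (Pearson r = 0.989), Nfyc (0.988) and Hp (0.983). The genes closest to Flt1 were Utp14b (0.984), Itfg2 (0.983) and Nfkb1 (0.982), and those closest to Mcam were Fam241a (0.979), Serpina3m (0.968) and Foxk2 (0.964). Vegfb was closest to Clec3b (0.996), Eef2 (0.995) and Ebf1 (0.993). Between pairs of the 10 genes, without Pgf, Vegfb and Angpt1 were the most alike (r = 0.95). These coefficients describe 8 libraries in 4 groups and carry no test.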

How the data were processed

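The table deposited by the authors gives 8 libraries as whole-number read counts for Ensembl genes, without normalization. The submitters' processing notes name build mm10 and the tools featureCounts 1.6.3, HISAT2 2.1.0, Trimmomatic 0.38 and FastQC 0.11.7; no source used here gives their settings or strand mode. Per the labels' protocols the library kit was directional. Columns were joined to samples through the sample descriptions, with replicate numbers from the titles; the names of the 2D uninduced columns carry other numbers, 2 and 3.

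Values were computed with R 4.3.3, edgeR 4.0.16, limma 3.58.1, DESeq2 1.42.0 and Python 3.11.15. Genes without a symbol held 0.0285% of counts. filterByExpr (minimum count 10) kept 15255 genes, and library sizes were scaled by TMM. One edgeR quasi-likelihood model on all 8 libraries (1 mean per group, 4 residual degrees of freedom) gave every comparison, two-sided, with Benjamini-Hochberg adjustment. RPKM uses merged exon lengths of GENCODE vM21. Folds against groups with 0 counts use a floor of 3 counts over the group, and ratios of low counts carry exact 95% intervals for counting error only. Promoter windows come from RefSeq. The fit was tested on simulated data.

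The genes, lists and comparisons were chosen with earlier results of these data known. Beyond the 10 genes, up to 3 called genes per list and comparison with the smallest adjusted p were named, and the 3 genes with the highest correlation. Car9, Kdr, Flt4, Kcnj8, Epas1, Pfkfb3, Slc2a1, Csf1r, Col1a1, Pdgfrb and Gm17473 were named after their values were seen. Alternatives were DESeq2 size factors in edgeR, no filter, DESeq2, limma-voom group weights, only the 4 libraries compared, a replicate block and leaving out each library.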

Additional observations from a re-analysis of the deposited data

Results flagged for a closer look

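Among the 8 tested genes and the genes of the lists, 7 differences between the responses to induction in spheroids and in flat cultures passed the test of the difference itself, which called 58 of all 15255 genes (edgeR, log2 change in spheroids minus that in flat cultures). For Mcam the fitted difference was -6.7, which rests on 3 counts in 2D uninduced cultures and depends on the small count the model adds, so its size is no bound. Mcam had 27 counts in 3D induced and 41 in 3D uninduced cultures, against 143 in 2D induced and 3 in 2D uninduced cultures. For Angpt4 the difference was -1.62 ± 0.23 (adjusted p = 0.0374), with 26.1 ± 5.48 and 43.5 ± 4.99 CPM in 3D induced and uninduced cultures and 91.9 ± 4.61 and 49.9 ± 1.63 CPM in 2D induced and uninduced cultures (SD, n = 2 each). For Egln3 it was -1.63 ± 0.24 (adjusted p = 0.0417), with induced means of 25.8 CPM in 3D and 156 CPM in 2D cultures beside uninduced means of 13.6 and 26.6 CPM. For Angptl4 it was -1.27 ± 0.17 (adjusted p = 0.0328), with 551 ± 9.60 and 363 ± 51.5 CPM in 3D induced and uninduced cultures and 399 ± 13.9 and 109 ± 3.06 CPM in 2D induced and uninduced cultures. For the lipid droplet protein Plin1 the fitted value was -8.69, which rests on 1 count in 2D uninduced cultures and is no bound; Plin1 had 3548 counts in 3D induced and 190 in 3D uninduced cultures, against 6496 in 2D induced cultures. For the adipocyte transcription factor Cebpa it was -2.46 ± 0.18 (adjusted p = 0.00316), with 28.4 ± 2.78 and 12.7 ± 0.746 CPM in 3D induced and uninduced cultures and 196 ± 10.1 and 15.9 ± 1.11 CPM in 2D induced and uninduced cultures. For the smooth muscle marker Tagln it was 2.06 ± 0.31 (adjusted p = 0.0483), with 9.90 ± 0.839 and 10.0 ± 2.59 CPM in 3D induced and uninduced cultures and 6.97 ± 1.14 and 29.4 ± 0.918 CPM in 2D induced and uninduced cultures.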

How the results depend on the processing

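Of 48 results on the 10 genes (8 tested without Pgf and Tek, 6 comparisons), 9 were called, and all 9 kept their sign in every alternative that gave a value. Of these, 4 stayed called in every alternative: Vegfa in uninduced spheroids, Mcam for induction in 2D, and Flt1 in induced spheroids and over both induction states. Of 39 uncalled results, 33 were called under no alternative, and 10 took another sign in at least 1. The 1 result with another sign that was also called under that alternative was Angpt2 for induction in 3D, at -1.02 without 3D induced replicate 2 (adjusted p = 0.00660), within a range of -1.02 to 0.86 over the left-out libraries; the cause was not tested. Without 3D induced replicate 1, Angpt2 was called for induced spheroids, over both states and for the difference of inductions, at 1.80, 1.16 and 1.28; without 2D induced replicate 2, Vegfc was called for induction in 2D at -1.11, and without 3D uninduced replicate 2 Vegfb in uninduced spheroids. With 1 library left out, an arm has 1 sample, which is assumed to vary like the other groups. Scaling by DESeq2 size factors moved no median of all genes past 0.03 and changed no call on the 10 genes.

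The replicate numbers were not taken to pair samples: same-numbered deviations correlated at 0.206 between the spheroid groups and at -0.006 to 0.027 between the others. For 2D uninduced cultures this check and the block depend on the title numbers, since the column names number those libraries 2 and 3. With the replicate block, 1 of the 10 genes was called for induction in 2D in place of 2, and 39 of all genes for the difference of inductions in place of 58.

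Counts of the 10 genes called ran over the left-out libraries from 1 to 3 for induction in 2D, 0 to 1 for induction in 3D, 1 to 3 for uninduced spheroids, 1 to 3 for induced spheroids, 1 to 2 over both states and 0 to 2 for the difference of inductions. With limma-voom group weights 1 was called for induced spheroids. Over all genes, induction in 2D called 689, and 1348 with group weights, 1213 with only the 4 libraries compared and 225 to 1169 over the left-out libraries. Induction in 3D called 139, and 336 without a filter, 242 with DESeq2, 88 with group weights, 0 with only the 4 libraries and 24 to 1225 over the left-out libraries. The difference of inductions called 58, and 209, 163 and 107 in the first 3 of these, and 1 to 686 over the left-out libraries. Induced spheroids called 1892, 825 with only the 4 libraries and 871 to 3025 over the left-out libraries. Uninduced spheroids called 1440, and 552 to 2170 over the left-out libraries. Of the counts over the left-out libraries, the highest in each of these 5 comparisons came without a 3D induced library. Depth limits Tek, Pgf and Mcam, which had 0 to 73 counts per library.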
